A study of Mus musculus with 9 samples.

Results

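The genes described here are 31 genes of cholesterol and fatty acid synthesis, taken by name from a table of 27179 mouse genes. All 31 were found in the table and all 31 had enough counts to be tested. Their RNA was measured by RNA sequencing in HPC7, a mouse line of immature blood progenitors, grown in RPMI medium with 100 ng/ml stem cell factor, 10% fetal calf serum and 0.05 mM 2-mercaptoethanol. The cells of all 9 libraries had received an MSCV retroviral vector with a green fluorescent protein gene and were sorted on that protein after 1 week. The 3 groups of 3 libraries carried an empty vector, wild-type Snai1, or a mutant Snai1 with alanine in place of phenylalanine at residue 5. That change impairs binding of the histone demethylase Lsd1. Snai1 was therefore expressed from a retroviral vector, in cells of 1 line sorted as a fluorescent population. Whether replicates came from separate transductions is not in the labels, so the spread behind every p-value is that among these libraries and could be technical.

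Animal cells build cholesterol from acetyl units through mevalonate, isoprenoids, squalene and lanosterol. When sterols are scarce in the endoplasmic reticulum, the escort protein SCAP carries the membrane-bound factors SREBP1 and SREBP2 to the Golgi, where they are cut and released to the nucleus. There they switch on genes of sterol synthesis and of fatty acid synthesis and desaturation. The proteins INSIG1 and INSIG2 hold SCAP back when sterols are plentiful, and Insig1 is itself a target of SREBP, so the pathway limits itself.

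Total counts per library ran from 18332451 to 20860314. Snai1 was at 0.698 to 1.06 CPM (counts scaled to the size of each library) with empty vector, 425 to 562 CPM with the wild type and 415 to 493 CPM with the mutant, as the labels say. Kdm1a, which encodes Lsd1, was at 193 to 208 CPM in all 9 libraries. All 12 blood progenitor markers had counts in every group, Kit at a mean of 3614 CPM with empty vector, and both hemoglobin genes were at 0 counts throughout. A pair of libraries stood apart from their own group. Counts of empty vector replicate 1 differed from the other controls by a chi-square of 70.9 and 72.9 per degree of freedom, against 4.96 between those 2, and its mitochondrial ribosomal RNA mt-Rnr2 was at 2701 CPM against 236 and 243 CPM. Wild-type replicate 1 differed from the others by 47.2 and 55.8, against 5.36 between those 2. Member calls that change without these libraries are given both ways.

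With wild-type Snai1, most of the synthesis genes were higher than with empty vector. Of the 31 genes 21 rose, 1 fell and 9 did not pass the test, by edgeR's quasi-likelihood test at an adjusted p under 0.05. Over all 12484 tested genes 25.2% rose and 24.3% fell, 49.4% in all. For 18 members (58.1%) the 3 wild-type libraries all lay above the 3 controls and for 2 (6.45%) below, beside 28.1% and 28.5% of all tested genes. The median log2 fold change was 0.51 for the 31 genes and -0.00033 for all tested genes, and the largest rise was 0.90, for Lss, below a doubling. Without both libraries that stand apart, 24 rose and 3 fell, with a median of 0.56, in a fit that called 7148 of 12590 tested genes in either direction. With mutant Snai1 none of the 31 passed the test, where 0.00801% of all tested genes rose and 0% fell. That share is 1 gene, Snai1 itself, which the vector carries. At an unadjusted p under 0.05 there was 1 such member with the mutant, beside 603 of all 12484 tested genes, and DESeq2 also called 0 members. Against the mutant, which shares the wild-type libraries with the first comparison, 25 of 31 were higher with the wild type and 1 was lower, beside 24.5% and 23.4% of all tested genes, or 47.9% in either direction.

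**Figure D1:**
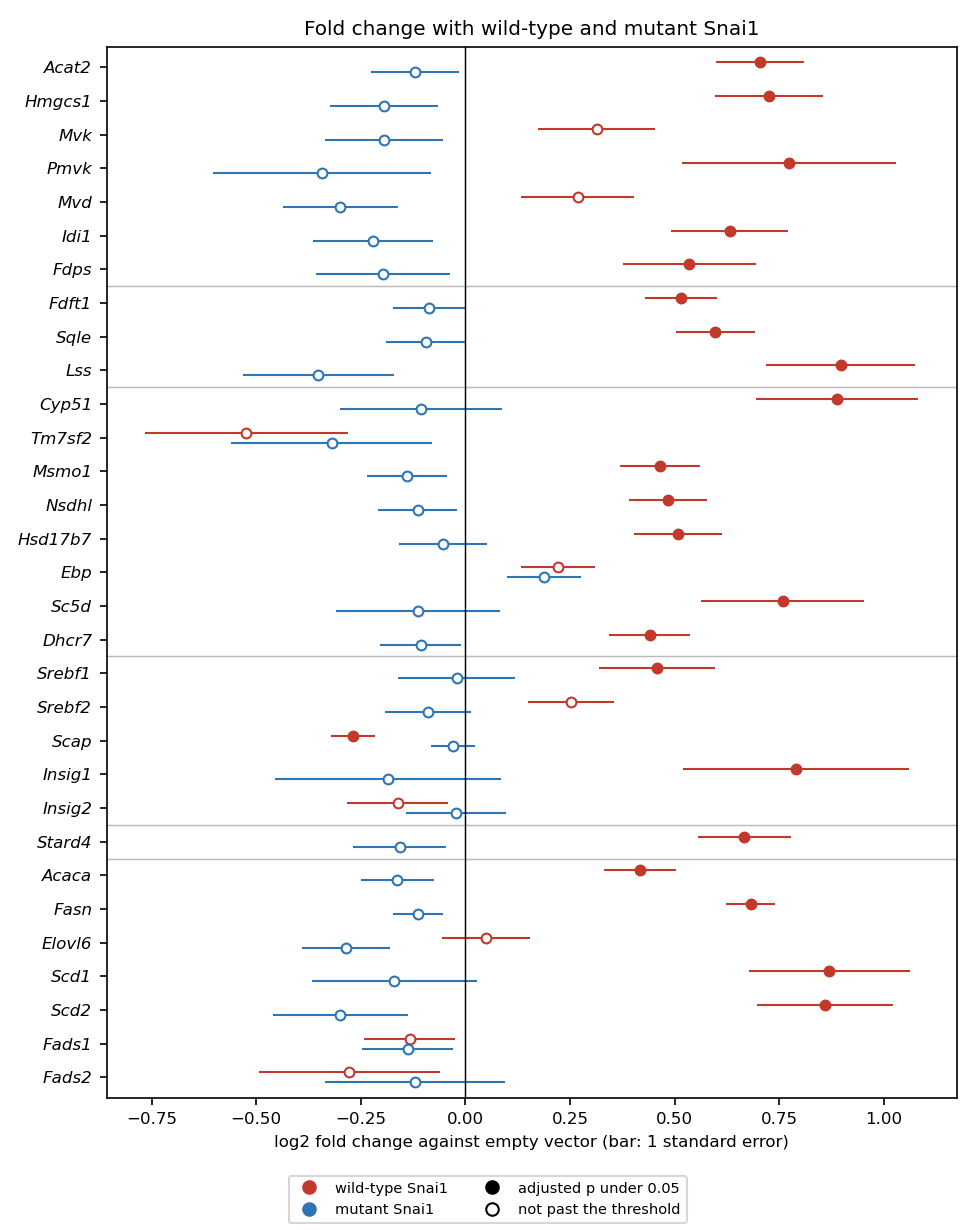
Log2 fold change of each of the 31 genes against empty vector with wild-type (red) and mutant (blue) Snai1, with bars of 1 standard error. Filled points passed the test at an adjusted p under 0.05, and horizontal lines separate the steps of the pathway. With the wild type 21 filled points lie to the right of 0 and 1, Scap, to the left, while all 31 mutant points are open.

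The RefSeq promoter table on GRCm38.p6 held 24 of the 31 genes, without Fdps, Fdft1, Sqle, Stard4, Scd1, Scd2 and Fads1. The 250 bases before each annotated start were searched on both strands for a sterol regulatory element core (TCACNCCAC), the CCAAT box that binds the SREBP partner NF-Y, and CAGGTG, the E-box that Snail proteins bind. A CCAAT box was found for 19 of 24 genes, or 79.2%, against 37.5% of all 27025 genes in that table, tested here or not. A gene with several starts counts once if any window matches. Among the 19 were Mvk, Mvd, Tm7sf2, Ebp, Srebf2 and Insig2, which were not called with the wild type against empty vector. The box was not found for Acat2 and Acaca, which rose, nor for Scap, Elovl6 and Fads2. The sterol element core was found only for Hmgcs1, or 4.17% against 1.22%, and the E-box for Pmvk, Lss and Insig2, or 12.5% against 19.4%. A match is a string of letters, not a measured binding site. Scap, the 1 member that fell, had 0 matches to any of the 3 motifs, and its stretch is not shown. The stretches below belong to 4 other genes. They are the sole gene with the sterol element core and the gene with the largest rise. The others are the gene with the smallest adjusted p and the feedback gene that split the wild-type libraries. Capitals mark matches to any of the 3 motifs on either strand (CCAAT reads ATTGG and CAGGTG reads CACCTG on the other strand), and each runs 5′ to 3′ on the gene's strand up to the base before the start in the promoter table. For Lss and Fasn that start lies inside the gene span given further on.
Hmgcs1, chr13:119690101-119690350, plus strand: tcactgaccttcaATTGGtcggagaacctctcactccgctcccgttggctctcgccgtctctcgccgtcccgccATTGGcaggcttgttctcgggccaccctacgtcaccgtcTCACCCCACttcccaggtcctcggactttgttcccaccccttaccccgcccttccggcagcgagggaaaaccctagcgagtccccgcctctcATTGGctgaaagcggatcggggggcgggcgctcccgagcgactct
Lss, chr10:76531355-76531604, plus strand: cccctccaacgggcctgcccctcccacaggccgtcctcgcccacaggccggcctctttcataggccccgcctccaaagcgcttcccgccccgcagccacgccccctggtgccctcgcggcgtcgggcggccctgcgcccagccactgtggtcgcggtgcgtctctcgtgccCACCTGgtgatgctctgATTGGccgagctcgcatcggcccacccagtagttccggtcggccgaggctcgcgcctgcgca
Fasn, chr11:120824548-120824797, minus strand: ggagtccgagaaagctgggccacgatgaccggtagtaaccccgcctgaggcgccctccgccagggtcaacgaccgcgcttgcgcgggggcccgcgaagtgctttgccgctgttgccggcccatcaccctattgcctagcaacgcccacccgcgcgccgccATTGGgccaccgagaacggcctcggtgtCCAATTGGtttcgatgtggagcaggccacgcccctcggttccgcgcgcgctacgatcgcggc
Insig1, chr5:28071162-28071411, plus strand: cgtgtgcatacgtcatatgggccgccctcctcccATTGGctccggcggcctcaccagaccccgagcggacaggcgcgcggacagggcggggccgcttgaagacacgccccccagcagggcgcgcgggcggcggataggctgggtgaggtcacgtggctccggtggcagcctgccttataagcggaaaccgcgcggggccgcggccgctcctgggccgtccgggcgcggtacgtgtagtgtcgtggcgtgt
In Hmgcs1 the sterol element core begins 137 bases before the start, between CCAAT boxes at 176 and 45 bases. The E-box of Lss begins 79 bases before that start, next to a CCAAT box at 62 bases. In Fasn the CCAAT boxes at 62 and 59 bases overlap each other in opposite directions.

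The mevalonate enzymes carry acetyl units to farnesyl diphosphate. Of 7 such genes 5 rose with the wild type and 0 fell, beside 25.2% and 24.3% of all tested genes. Their median log2 fold change was 0.63. Hmgcs1, which makes the precursor of mevalonate, lies on chromosome 13 (119690351 to 119708260). It was at 534, 607 and 599.8 CPM in empty vector replicates 1 to 3, at 740, 1087 and 1055 CPM with the wild type, and at 505, 535 and 481 CPM with the mutant. All 3 wild-type libraries lay above all controls, replicate 1 the least far. The log2 fold change was 0.73 (SE 0.13, adjusted p 0.00117) with the wild type and -0.20 (SE 0.13, adjusted p 0.998) with the mutant. Acat2, a cytosolic thiolase that starts the pathway, rose from 108 ± 10.2 to 176 ± 25.0 CPM (SD, n = 3; log2 fold change 0.70, SE 0.11, adjusted p 3.49e-04). Idi1, which interconverts the 5-carbon isoprenoid units, rose by 0.63 (SE 0.14, adjusted p 0.00374). Acat2 has a close relative among mouse genes, so its reads are uncertain.

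For the other mevalonate genes wild-type replicate 1 lay near the controls. Pmvk, phosphomevalonate kinase, was at 24.4, 30.8 and 30.7 CPM with empty vector, 27.9, 64.0 and 54.8 CPM with the wild type, and 23.3, 22.7 and 21.7 CPM with the mutant. Wild-type replicate 1 lay within the control range and the others far above it. Its adjusted p was 0.0325 (log2 fold change 0.77, SE 0.26). That call was lost without any 1 of the 3 controls or without wild-type replicate 2 or 3 (adjusted p 0.0562 to 0.107), and with no filter or 2 groups in the fit (0.0791 and 0.0646), and the log2 fold change was 1.05 without wild-type replicate 1 (adjusted p 1.32e-07). Fdps, which makes farnesyl diphosphate, rose by 0.54 (SE 0.16, adjusted p 0.0192). The adjusted p was 0.0750 when empty vector replicate 1 was dropped, and 0.0645 and 0.0515 when wild-type replicate 2 or 3 was. Mevalonate kinase, Mvk, and the decarboxylase Mvd had log2 fold changes of 0.31 and 0.27 that missed the threshold (adjusted p 0.0875 and 0.126). Without wild-type replicate 1 they were 0.46 and 0.38 and passed it (adjusted p 5.45e-04 and 0.0156).

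The 3 enzymes from farnesyl diphosphate to lanosterol all rose with the wild type, and their groups did not overlap. Of all tested genes 25.2% rose, and 28.1% had all wild-type libraries above all controls. Lss, lanosterol synthase, lies on chromosome 10 (76531565 to 76557139) and was at 61.3, 77.2 and 89.4 CPM with empty vector. It reached 105, 169 and 149 CPM with the wild type and was at 61.7, 62.3 and 54.6 CPM with the mutant. The wild-type libraries were the 3 highest, and the mutant libraries lay near or below empty vector replicate 1, the lowest control. Its log2 fold change was 0.90 (SE 0.18, adjusted p 0.00255) with the wild type. Sqle, the oxygenase that acts before Lss, rose from 217 ± 7.15 to 329 ± 50.0 CPM (SD, n = 3), and the squalene synthase gene Fdft1 from 81.1 ± 10.1 to 116 ± 5.06 CPM. Their log2 fold changes were 0.60 (SE 0.10) and 0.51 (SE 0.09). Fdft1 overlaps Ctsb in the annotation and Lss overlaps 4930483K19Rik, so reads of both are uncertain.

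From lanosterol to cholesterol, 6 of 8 enzyme genes rose with the wild type, beside 25.2% of all tested genes, with a median of 0.47. Cyp51, the lanosterol demethylase, was at 213, 225 and 228 CPM with empty vector, 267, 473 and 493 CPM with the wild type, and 219, 195 and 206 CPM with the mutant. Wild-type replicate 1 lay just above the controls and the other 2 far above. The log2 fold change was 0.89 (SE 0.19, adjusted p 0.00482). Sc5d, the desaturase of a late step, had the same form, with 85.6, 152 and 158 CPM in the wild-type libraries against 75.4 to 82.3 CPM in the controls (log2 fold change 0.76, SE 0.19, adjusted p 0.0102). Msmo1, Nsdhl, Hsd17b7 and Dhcr7, which remove methyl groups, reduce ketones or reduce the last double bond, rose by 0.44 to 0.51 (log2), and their adjusted p ran from 0.00171 to 0.00365.

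A pair of genes of this segment did not pass. Ebp, the sterol isomerase, was at 33.2 to 34.1 CPM with the wild type and 31.4 to 35.4 CPM with the mutant, against 26.8 to 32.3 CPM with empty vector. Its log2 fold change with the wild type was 0.22 (SE 0.09, adjusted p 0.0586), and 0.31 without empty vector replicate 2 (0.0164). It was the only member with a positive log2 fold change with the mutant (0.19, SE 0.09, adjusted p 0.980). Tm7sf2, a sterol reductase, was at 21.7, 25.5 and 25.3 CPM with empty vector, 10.0, 21.5 and 18.9 CPM with the wild type, and 21.6, 20.7 and 15.8 CPM with the mutant. All 3 wild-type libraries were below all controls, with replicate 1 far below the others. Its log2 fold change of -0.52 (SE 0.24) missed the threshold (adjusted p 0.101). It was -0.34 (adjusted p 0.0323) without both libraries that stand apart and -0.74 (adjusted p 0.0367) without wild-type replicate 2. Tm7sf2 overlaps Vps51, so its reads are uncertain.

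**Figure D2:**
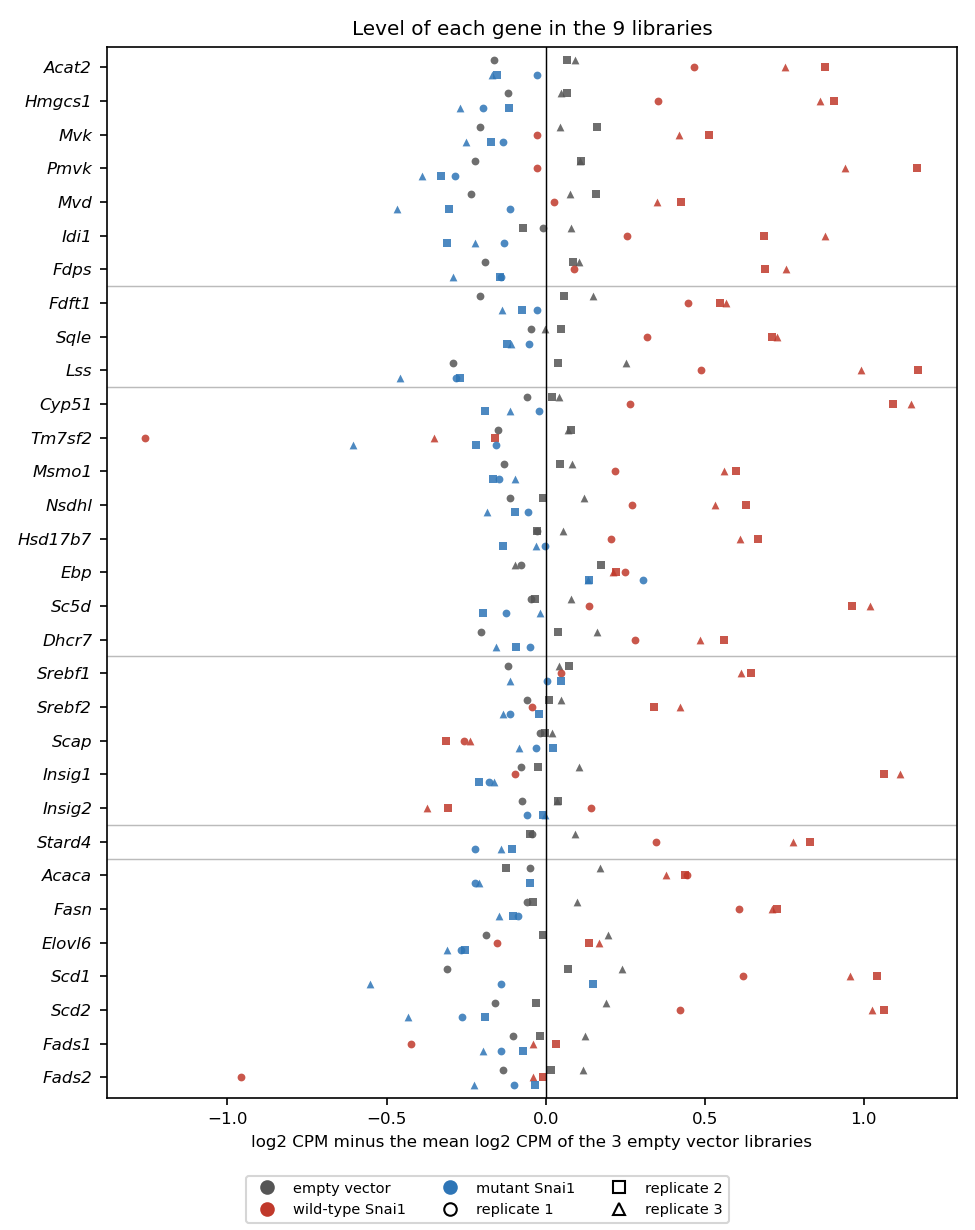
Log2 CPM of each gene in each of the 9 libraries, minus the mean of the 3 empty vector libraries, with colors for groups and marker shapes for replicate numbers. Wild-type replicate 1 (red circles) is the lowest wild-type library for 27 of 31 genes, and mutant libraries (blue) lie mostly to the left of 0.

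Among the genes that sense sterols, 2 of 5 rose and 1 fell with the wild type, beside 25.2% and 24.3% of all tested genes. Insig1 (chromosome 5, 28071412 to 28078662) was at 139, 144 and 157 CPM with empty vector, at 137, 306 and 317 CPM with the wild type, and at 129, 127 and 131 CPM with the mutant. Wild-type replicate 1 was below all controls and the other 2 far above. The log2 fold change was 0.79 (SE 0.27, adjusted p 0.0400), and 1.09 without wild-type replicate 1 (adjusted p 3.88e-11). Leaving out any other library of the 2 groups lost the call (adjusted p 0.0650 to 0.128), and so did the fit with replicate numbers as a block (0.0524), no filter (0.0986) or 2 groups in the fit (0.0642). Its relative Insig2 was at 36.0, 39.0 and 38.9 CPM with empty vector and 41.8, 30.6 and 29.2 CPM with the wild type, where replicate 1 was above and the other 2 below the controls. It did not pass the test (log2 fold change -0.16, SE 0.12, adjusted p 0.289), but fell by 0.34 without wild-type replicate 1 (adjusted p 4.54e-04). On the scale of CPM per kilobase, Insig1 stood at a mean level of 55.4 and Insig2 at 15.03 with empty vector, and at 95.7 and 13.4 with the wild type.

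Scap (chromosome 9, 110333288 to 110384949) was the 1 member that fell. It was at 94.7, 95.7 and 97.3 CPM with empty vector, 80.2, 77.2 and 81.2 CPM with the wild type, and 93.9, 97.5 and 90.6 CPM with the mutant. The wild-type libraries lay close together and below all others. The log2 fold change was -0.27 (SE 0.05, adjusted p 0.00173) against empty vector and -0.24 (SE 0.05, adjusted p 0.00353) against the mutant. Of the SREBP genes, Srebf1 was at 123 to 140 CPM in the controls and 137, 208 and 204 CPM with the wild type, and its log2 fold change was 0.46 (SE 0.14, adjusted p 0.0209). Dropping empty vector replicate 1 gave an adjusted p of 0.0795, and dropping wild-type replicate 2 or 3 gave 0.0732 and 0.0543. Srebf2 was at 382 to 411 CPM in the controls and 386, 504 and 533 CPM with the wild type, and missed the threshold (log2 fold change 0.25, SE 0.10, adjusted p 0.0642). It passed with DESeq2 (adjusted p 0.0382), with RLE scaling (0.0488) and without wild-type replicate 1 (1.22e-05) or both libraries that stand apart (8.57e-05). Srebf1 overlaps Rai1, and Srebf2 holds the microRNA gene Mir33. Stard4, which carries sterols between membranes, rose from 131 ± 7.30 to 207 ± 36.0 CPM (SD, n = 3; log2 fold change 0.67, SE 0.11, adjusted p 7.20e-04).

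**Figure D3:**
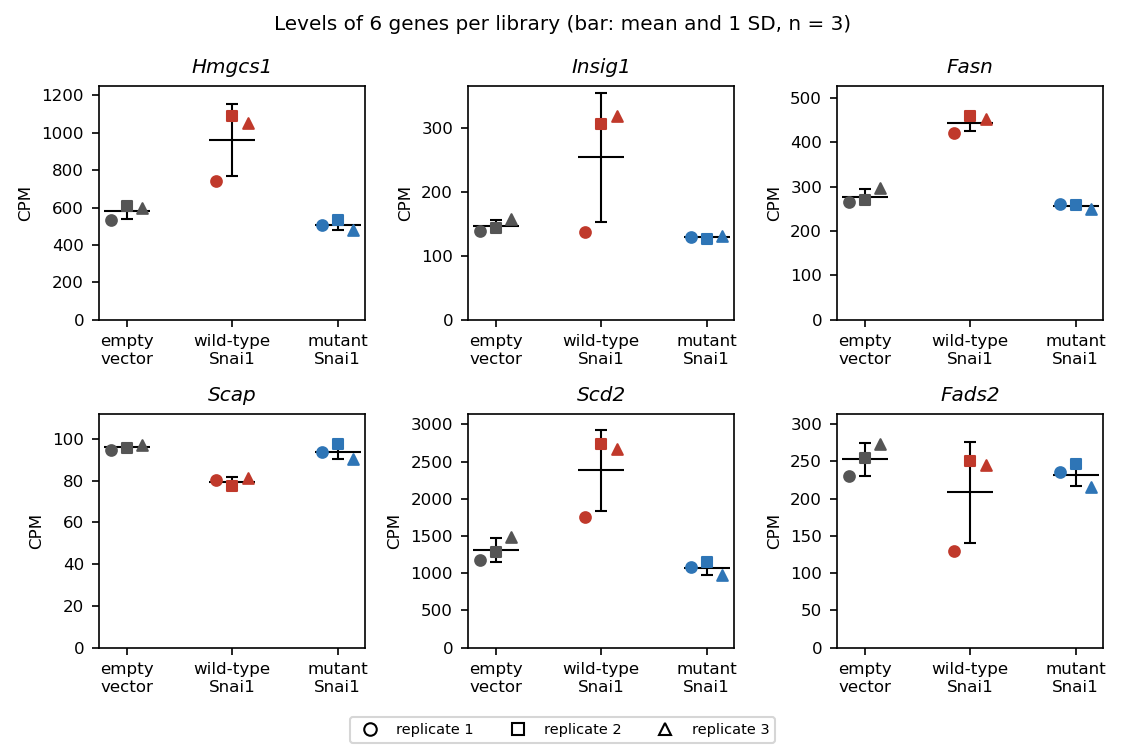
CPM of 6 genes in each library on linear axes from 0, with marker shapes for replicate numbers and bars for each group's mean and 1 SD (3 libraries). Fasn and Scap show a tight wild-type group, Insig1 has wild-type replicate 1 at 137 CPM against 306 and 317 CPM, and Fads2 has it at 130 CPM against 250.4 and 245 CPM.

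Fatty acid synthesis split between genes that rose and genes that did not. Fasn, the fatty acid synthase (chromosome 11, 120805958 to 120825166), was at 266, 269 and 296 CPM with empty vector, 422, 458 and 453 CPM with the wild type, and 261, 258 and 250.2 CPM with the mutant. The wild-type libraries were close together and far above the rest, and the mutant libraries were below all controls. Its log2 fold change of 0.68 (SE 0.06) had the smallest adjusted p of the 31 genes, 7.78e-06. Acaca, the acetyl-CoA carboxylase that supplies Fasn, was at 49.0, 48.8 and 46.7 CPM with the wild type against 33.0 to 40.5 CPM in the controls (log2 fold change 0.42, SE 0.09, adjusted p 0.00250), with reads that overlapping Tada2a makes uncertain. For both genes wild-type replicate 1 stood near the other wild-type libraries.

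Of the desaturases, those that place the first double bond rose and those of polyunsaturated fatty acids did not pass. Scd2 was at 1172, 1281 and 1491 CPM with empty vector, 1753, 2734 and 2666 CPM with the wild type, and 1089, 1147 and 969 CPM with the mutant. Its log2 rise was 0.86 (SE 0.16, adjusted p 0.00186), and that of its relative Scd1 0.87 (SE 0.19, adjusted p 0.00421) from a control level of 17.6 ± 3.30 CPM (SD, n = 3). As both are close relatives, their reads are uncertain. Fads2 was at 230 to 273 CPM in the controls and 130, 250.4 and 245 CPM with the wild type, with only replicate 1 outside the control range. Fads1 was at 316 to 370 CPM in the controls and 253, 348 and 330.1 CPM with the wild type, again with only replicate 1 below. Their log2 fold changes were -0.28 (SE 0.22, interval -0.77 to 0.21) and -0.13 (SE 0.11, interval -0.37 to 0.11), with 95% intervals that include 0 (adjusted p 0.319 and 0.334). The elongase Elovl6 was at 96.1 to 126 CPM in the controls, 98.5 to 123 CPM with the wild type and 88.3 to 91.8 CPM with the mutant.

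Levels per gene length placed Scd2, Hmgcs1 and Fads2 highest. With empty vector, mean levels over the 31 genes ran from 3.63 (Scd1) to 241 (Scd2) CPM per kilobase, with a median of 31.0. With the wild type they ran from 5.33 (Acaca) to 437 (Scd2), with a median of 45.6. Hmgcs1 stood at 177 and Fads2 at 167 CPM per kilobase with empty vector, a smaller gap than their spread, and at 293 and 138 with the wild type.

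**Figure D4:**
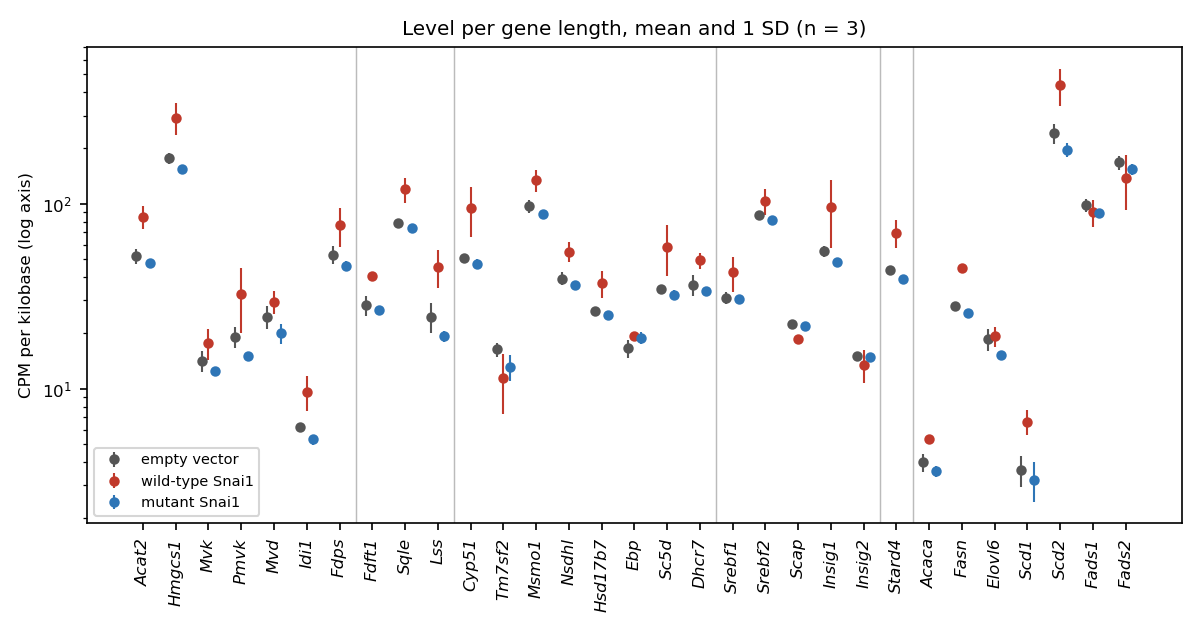
Level of each gene in CPM per kilobase of gene length on a log axis, as each group's mean and 1 SD (3 libraries), in pathway order with vertical lines between steps. Levels range from 3.23 to 437 CPM per kilobase, and red points lie above the grey and blue points for most genes from Acat2 to Dhcr7.

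The 3 wild-type libraries differed in their levels of these genes. Replicate 1 was the lowest wild-type library for 27 of 31 genes, where it was the lowest for 43.8% of all tested genes. It lay above all controls for 19 genes, and replicates 2 and 3 for 25 each. The median of the 31 log2 deviations from the control mean was 0.22 in replicate 1, 0.64 in replicate 2 and 0.61 in replicate 3. For the mevalonate genes these medians were 0.09, 0.69 and 0.76, while for the fatty acid genes they were 0.42, 0.44 and 0.38. The latter medians hide single genes, such as Scd2 at 0.42, 1.06 and 1.03 and Fads2 at -0.96, -0.01 and -0.04. The median coefficient of variation over the 31 genes was 16.6% with the wild type, 8.06% with empty vector and 4.77% with the mutant. Snai1 itself was at 425, 488 and 562 CPM in wild-type replicates 1 to 3, and its part in these differences was not tested.

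With the mutant, 30 of 31 genes had log2 fold changes below 0, with a median of -0.14 and a range of -0.35 to 0.19. Over all tested genes the median was -0.0048, and 48.1% had values above 0. For 9 genes (29.0%) all 3 mutant libraries lay below all 3 controls, and for 0 above, beside 9.04% and 8.53% of all tested genes. These were Pmvk, Idi1, Sqle, Tm7sf2, Insig1, Stard4, Fasn, Elovl6 and Scd2. The controls themselves were spread: empty vector replicate 1 was the lowest control for 27 genes (for 37.3% of all tested genes) and below the control mean for all 31, while replicate 3 was above that mean for 29. The median with the mutant was -0.07 without empty vector replicate 3 and -0.19 without empty vector replicate 1. When both libraries that stand apart were left out, Pmvk, Lss and Elovl6 passed the test as lower with the mutant. Their log2 fold changes were -0.44, -0.48 and -0.37 (adjusted p 0.0361, 0.0276 and 0.0204). That fit called 29 of 12590 tested genes, 18 as lower. Without empty vector replicate 1 alone, 0 members passed, at like log2 fold changes for Pmvk (-0.44, SE 0.29) and Lss (-0.48, SE 0.18). Their SE was 0.08 each without both libraries. Wild-type replicate 1 is not in this comparison, but it enters the spread that all groups share in the fit. The part of empty vector replicate 1 and its ribosomal RNA in these differences was not tested.

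Wild type and mutant, at like levels of Snai1 transcript, differed by a median log2 fold change of 0.60 over the 31 genes, beside -0.0055 for all tested genes. For 23 genes (74.2%) all wild-type libraries lay above all mutant libraries, beside 27.5% of all tested genes, and for 1 (3.23%) below, beside 28.3%. The difference was 1.25 (SE 0.18, adjusted p 4.12e-04) for Lss, 1.16 (SE 0.16, 3.43e-04) for Scd2 and 1.12 (SE 0.26, 0.00656) for Pmvk. The smallest adjusted p was again that of Fasn, 2.85e-06, with a log2 fold change of 0.79 (SE 0.06). Mvk, Mvd, Srebf2 and Elovl6, which did not pass against empty vector, had log2 differences from the mutant of 0.51, 0.57, 0.34 and 0.33 that did (adjusted p 0.0128, 0.00630, 0.0193 and 0.0234). The call for Elovl6 was lost without any 1 of the mutant libraries or without wild-type replicate 2 or 3, and that for Srebf2 without mutant replicate 1 or 3, without wild-type replicate 2 or 3, or with 2 groups in the fit. Without wild-type replicate 2 the call for Mvk was lost (adjusted p 0.0504), and that for Srebf1 without wild-type replicate 2 or mutant replicate 3 (0.0622 and 0.0628). Without wild-type replicate 2 or 3, that for Insig1 was lost too (adjusted p 0.0633 and 0.0554), as it was with no filter (0.0518). Insig2 differed from the mutant by -0.14 (adjusted p 0.369), and by -0.32 without wild-type replicate 1 (8.49e-04) and -0.33 without both libraries that stand apart (6.68e-04). For Fads1 and Ebp the 95% intervals of the difference were -0.24 to 0.25 and -0.16 to 0.23.

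Markers of other cell types moved with wild-type Snai1 as well. The 16 monocyte and macrophage markers summed to 191 to 223 CPM with empty vector, 196 to 219.6 CPM with the mutant and 932, 1156 and 1515 CPM in wild-type replicates 1 to 3. Of the 13 tested, 9 rose and 3 fell, beside 25.2% and 24.3% of all tested genes. The median deviation of these markers was 2.96, 2.64 and 3.52 in wild-type replicates 1 to 3. Msr1 and Marco were at 0 counts in the controls. Neutrophil markers summed to 73.8 to 82.2 CPM in the controls and 123 to 255 CPM with the wild type, with 4 of 7 tested higher, and Retnlg was at 0 in every group. Of the erythroid markers 5 of 5 tested fell, with a median of -0.77, and of the mast cell markers 3 of 4 tested rose and 1 fell. Of the 12 blood progenitor markers 2 rose and 5 fell, beside 25.2% and 24.3% of all tested genes. Their log2 fold changes ran from -0.95 to 1.01. Of 12 proliferation genes 5 rose and 0 fell, with summed levels of 3420 to 3574 CPM in the controls and 3171, 3772 and 3969 CPM with the wild type. The part of these shifts in the synthesis genes was not tested. In such bulk samples a change in the make-up of the cells and a change of RNA per cell cannot be told apart.

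Of the further genes around the pathway some rose and some fell with the wild type, and none of them passed with the mutant. Among liver X receptors and sterol efflux genes 2 of 7 tested rose and 2 fell, near the 25.2% and 24.3% of all tested genes. The cholesterol exporter Abcg1 fell from 43.7 ± 4.45 to 9.36 ± 1.31 CPM (SD, n = 3; log2 fold change -2.22, SE 0.12, adjusted p 2.77e-07), while Abca1, another exporter, rose from 2.66 ± 0.702 to 9.66 ± 3.53 CPM (1.86, SE 0.33, 0.00120). Rxrb, a partner receptor, fell by 0.44 (SE 0.07). The phospholipid acyltransferase gene Lpcat3 rose by 0.35 (SE 0.11, adjusted p 0.0280), a call lost without empty vector replicate 1 or 2 or without wild-type replicate 2 or 3 (0.0700 to 0.114), or with 2 groups in the fit (0.0696). In SREBP processing and turnover 3 of 10 rose and 3 fell, also near those shares. Erlin1, whose product takes part in degradation at the endoplasmic reticulum, fell from 56.3 ± 2.23 to 37.6 ± 1.39 CPM (adjusted p 3.14e-05), and its relative Erlin2 rose from 70.4 ± 1.46 to 84.8 ± 0.211 CPM (0.00155). Spring1, a regulator of SREBP cleavage, fell by 0.50 (SE 0.11), and the phosphatidate phosphatase gene Lpin1 rose by 0.48 (SE 0.07).

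Of genes for cholesterol storage and transport 7 of 12 rose and 0 fell, beside 25.2% and 24.3% of all tested genes. Their median was 0.21. Soat1, which esterifies cholesterol, rose from 364 ± 12.3 to 486 ± 64.2 CPM (SD, n = 3; log2 fold change 0.42, SE 0.09, adjusted p 0.00232). The sterol transporter gene Gramd1b rose by 0.71 (SE 0.12) and Osbpl9 by 0.23 (SE 0.06). Npc2, which moves cholesterol out of lysosomes, had 0.14 (SE 0.05, adjusted p 0.0344), a call lost in 8 of 12 other settings. In the isoprenoid branch 7 of 14 rose and 2 fell, beside 25.2% and 24.3% of all tested genes. Among them were Icmt at 0.35 (SE 0.06), Fnta at 0.33 (SE 0.07), Rabggta at -0.38 (SE 0.08) and Coq2 at -0.18 (SE 0.06, adjusted p 0.0423). The call for Coq2 was lost in 10 of 12 other settings.

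In fatty acid elongation and activation 9 of 18 tested rose and 4 fell, beside 25.2% and 24.3% of all tested genes. The median was 0.39, with log2 fold changes of -0.70 to 1.30. Acsl4, which activates polyunsaturated fatty acids, rose from 182 ± 3.292 to 448 ± 71.5 CPM (SD, n = 3; log2 fold change 1.30, SE 0.10, adjusted p 2.67e-06). Elovl1, Hsd17b12 and Acsl3 rose by 0.54, 0.55 and 0.52 on the log2 scale. In fatty acid oxidation 4 of 15 tested rose and 7 fell, beside 25.2% and 24.3% of all tested genes. The median was -0.05, with log2 fold changes of -0.91 to 0.75. Cpt1a, the gate of fatty acids into mitochondria, fell from 254 ± 6.21 to 136 ± 13.7 CPM (log2 fold change -0.91, SE 0.08, adjusted p 9.21e-06). Acadm and Eci1, enzymes of the mitochondrial cycle, fell by 0.59 (SE 0.05) and 0.56 (SE 0.07). Reads of Elovl1, Acsl3, Icmt, Osbpl9, Gramd1b, Lpcat3, Lpin1 and Spring1 are uncertain, since each overlaps another gene of the table.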

How the data were processed

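Gene expression was measured in 9 libraries made from total RNA with the Illumina TruSeq stranded mRNA kit. The deposited values are raw counts per Entrez gene that the authors made with featureCounts on mm10, per the submitters' processing notes. Those notes list limma 3.29.12 and edgeR 3.15.0 too. The aligner, annotation and strand setting are not given in the sources used here, so reads of overlapping genes are uncertain. The deposited table held 0 columns of other samples, and 25275 of 27179 identifiers matched RefSeq on GRCm38.p6, the assembly behind mm10.

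The counts were analysed in R 4.3.3 with edgeR 4.0.16: filterByExpr left 12484 genes, TMM scaled the libraries, and all 9 entered 1 robust quasi-likelihood fit without a replicate block. P-values were adjusted over all tested genes by the Benjamini-Hochberg method and called under 0.05. CPM use TMM-scaled library sizes, fold changes are the fit's log2 estimates, each SE is the log2 estimate divided by the root of the F statistic, and deviations per library use log2 CPM with a prior count of 2. Gene lengths come from the deposited table. The fit was also run on simulated data, with an outcome not reported here, and no call rests on that run.

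The members and all gene lists were chosen with earlier results of these data known. Named genes are all members, Snai1, Kdm1a and, of each further list, the up to 4 called genes with the smallest adjusted p in any comparison, of which 1 is not reported here. Alternatives were RLE scaling, no filter, DESeq2 1.42.0, 2 groups in the fit, a replicate block and leaving out each library. A fit without both libraries that stand apart was chosen after seeing the data. The lowest count of any member in any library was 201.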

Additional observations from a re-analysis of the deposited data

How the results depend on the processing

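Across the alternatives, 17 to 24 members were higher with wild-type Snai1 than with empty vector, and 20 to 25 were higher than with the mutant. The medians kept their signs. Of all tested genes, 2599 to 3779 rose and 2507 to 3631 fell with the wild type when each library was left out in turn. Against the mutant, 2537 to 3748 were higher and 2441 to 3560 lower. Leaving out 1 library at a time, the members called lower numbered 1 to 2 against empty vector and 1 to 2 against the mutant, and the median of the mutant against empty vector ran from -0.188 to -0.073. Without both libraries that stand apart, the members called lower were 3 and 2 in the wild-type comparisons and 3 with the mutant, whose median was then -0.188. Over all genes, the mutant gave 13 higher and 17 lower with only 2 groups in the fit, 6 and 4 with DESeq2, and 11 and 18 without both libraries, against 1 and 0. Leaving out any 1 library of the 2 groups gave 1 and 0. The fit of 2 groups holds no wild-type library, and the cause of these differences was not tested. The fewest counts of a member in a library were 201.

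Signs turned only for members that were not called. Leaving out 1 library at a time, Elovl6 against empty vector ran from -0.051 (without empty vector replicate 1) to 0.156. Srebf1 with the mutant ran from -0.077 to 0.025, and was above 0 without empty vector replicate 2 (0.018) or 3 (0.0015) or mutant replicate 3. Against the mutant, Fads1 ran from -0.084 to 0.131 and was at -0.039 without wild-type replicate 3 and -0.026 without mutant replicate 3. Tm7sf2 ran from -0.423 to 0.061 and Fads2 from -0.311 to 0.092, both highest without wild-type replicate 1. Fads1 was at -0.0104 with no filter and -0.0075 with 2 groups, and Tm7sf2 and Fads2 were at 0.0501 and 0.0806 without both libraries.

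With replicate numbers as a block, 20 members were higher and 1 lower against empty vector, 25 and 1 against the mutant, and 0 with the mutant. Over all tested genes the block fit called 2976 higher and 2910 lower against empty vector, and 2907 and 2825 against the mutant. With the mutant it called 1 higher and 0 lower. Among members the block ended the call of Insig1 against empty vector, turned Fads1 against the mutant to -0.0070, and changed no other call. Deviations of same-numbered libraries correlated at -0.087 to 0.21, above 0.1 in 2 of 9 pairs, and 4 of 9 libraries correlated best with their own number, so the numbers were not used as pairs.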
